A study of Homo sapiens with 15 samples.

Results

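Long noncoding RNAs, pseudogenes and small RNA genes can start at promoters of their own, away from any protein-coding gene. The regions described here are those that BG4 marked near annotated noncoding starts and not near protein-coding ones. BG4 is an antibody to DNA G-quadruplexes, the stacked structures of guanine-rich DNA, and chromatin bound by it was sequenced in K562, an established human myelogenous leukaemia line. A region was taken from the high-confidence list when it lay within 1 kb of the start site of any basic transcript in GENCODE on GRCh37 (hg19) and more than 1 kb from the start site of every protein-coding transcript of a protein-coding gene. This gave 546 noncoding-start regions, 6.11% of the 8937 regions on chromosomes 1 to 22 and X. The other regions were 6695 at protein-coding starts (74.9%), of which 1795 also had a noncoding start within 1 kb, and 1696 away from any start (19%). The whole list held 8955 regions, with 15 on the mitochondrial chromosome and 3 on chromosome Y left out.

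All BG4 libraries came from asynchronous, untreated K562 cells, so there was no second condition to compare, and the comparisons are between kinds of region. The 5 BG4 libraries came from 2 biological replicates, with technical libraries 1a and 1c of replicate 1 and 2a, 2b and 2c of replicate 2, so a difference that is steady over libraries still rests on 2 biological replicates. The peak lists held 12495, 10079, 8059, 9026 and 11111 peaks in the order 1a, 1c, 2a, 2b and 2c. The read depth behind each list is unknown, and the names of the peaks under 2a bore the letter of 2c and the reverse, so values of these 2 libraries may be exchanged. No expression was measured in the files, so neither the identity of the cells nor the activity of a noncoding gene could be checked from its RNA. Bisulfite libraries of HaCaT cells, a keratinocyte line, control and treated with the histone deacetylase inhibitor entinostat, and the K562 inputs were not analysed here.

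As background, a long noncoding RNA (lncRNA) is a transcript that yields no protein, made by RNA polymerase II much as messenger RNA is. Many lncRNA genes start beside a coding gene and share its promoter, while others start away from coding genes and can have a promoter of their own. The lncRNA genes treated here were picked by the distance between annotated starts. Whether each has its own promoter was not tested. Pseudogenes are copies of coding genes that lost the reading frame. Unprocessed copies arose by duplication of genomic DNA and may keep a promoter, processed copies arose from reverse-transcribed RNA and usually lack one, and unitary pseudogenes are former coding genes with no working counterpart. CpG islands are stretches rich in CpG that are mostly unmethylated in somatic cells, and quadruplexes need runs of G, which such islands hold in number.

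The sequences of some of the high-ranked regions with a quadruplex motif show what the antibody list covers at these starts. The motif searched was 4 runs of at least 3 G, separated by loops of 1 to 7 bases of any kind, on either strand, and each region was scored as holding it or not. In the stretches shown, read from GRCh37 and written 5′ to 3′ on the strand that carries the G runs, the capitals mark the first motif in the region with the matches that overlap it. The first 3 are the best ranked lncRNA regions with a motif, the next is the pseudogene VAMP9P, and then come 2 small RNA genes, 1 gene of the remaining types, and MIR210HG from the list of blood cell microRNA genes.
LINC01003 (chr7:152160783-152160890, plus strand): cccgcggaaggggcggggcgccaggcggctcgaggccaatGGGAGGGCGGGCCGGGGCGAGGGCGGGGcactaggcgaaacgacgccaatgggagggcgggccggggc
PCGF3-AS1 (chr4:775723-775843, minus strand): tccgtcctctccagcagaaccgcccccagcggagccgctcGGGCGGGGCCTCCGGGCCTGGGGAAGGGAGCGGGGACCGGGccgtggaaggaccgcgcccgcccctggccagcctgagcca
ENSG00000244459 (chr4:1582501-1582593, minus strand): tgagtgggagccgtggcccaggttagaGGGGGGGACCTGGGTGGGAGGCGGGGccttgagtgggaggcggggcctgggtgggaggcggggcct
VAMP9P (chr4:83206075-83206176, minus strand): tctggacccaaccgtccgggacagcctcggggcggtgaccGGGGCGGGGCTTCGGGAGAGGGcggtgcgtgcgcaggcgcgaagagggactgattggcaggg
MIR3191 (chr19:47729632-47729690, minus strand): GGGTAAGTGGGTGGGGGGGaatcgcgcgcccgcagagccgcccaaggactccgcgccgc
MIR193A (chr17:29886126-29886235, plus strand): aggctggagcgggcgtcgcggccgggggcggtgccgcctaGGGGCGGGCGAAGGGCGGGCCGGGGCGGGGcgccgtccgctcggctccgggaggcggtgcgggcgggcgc
ENSG00000269403 (chr19:51871041-51871155, minus strand): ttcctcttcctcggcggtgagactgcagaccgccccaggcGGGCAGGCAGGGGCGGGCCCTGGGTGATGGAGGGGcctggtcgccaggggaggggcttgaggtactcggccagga
MIR210HG (chr11:568400-568494, minus strand): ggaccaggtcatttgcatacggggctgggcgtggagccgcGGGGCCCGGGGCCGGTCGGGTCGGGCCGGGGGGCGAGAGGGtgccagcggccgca

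In 6 of these 8, LINC01003, PCGF3-AS1, ENSG00000244459, MIR193A, ENSG00000269403 and MIR210HG, the printed G-rich strand was the strand of the transcript, and in VAMP9P and, on GENCODE's strand, MIR3191 it was the opposite one. The LINC01003 region held 11 positions at which a motif match starts and the ENSG00000244459 region 16, so the capitals are only part of their G-rich sequence. A motif was not needed for a region to be called, as the start of the well-known lncRNA MALAT1 shows. In its stretch the capitals mark each run of 3 or more G on the transcript's strand, 5 in 160 bases, and the region held the motif on neither strand.
MALAT1 (chr11:65264932-65265091, plus strand): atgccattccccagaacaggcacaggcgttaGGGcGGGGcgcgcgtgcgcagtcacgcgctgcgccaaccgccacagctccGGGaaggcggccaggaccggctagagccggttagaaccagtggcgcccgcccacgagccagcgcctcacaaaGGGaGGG

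Of 23 microRNA genes with a start within 1 kb of a noncoding-start region, 13 matched the RefSeq table of mature microRNAs (GRCh38.p14) by symbol. The arms below belong to MIR210, whose region ranked highest among these 13, and to MIR4519 and MIR193A, which are among the 3 best ranked regions nearest to a microRNA gene. The third, MIR3191, is left out because the 2 annotations place it on opposite strands. Capitals mark the seed, bases 2 to 8, by which a microRNA pairs with its targets.
hsa-miR-210-3p: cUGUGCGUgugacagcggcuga
hsa-miR-210-5p: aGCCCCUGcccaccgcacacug
hsa-miR-4519: cAGCAGUGcgcagggcug
hsa-miR-193a-3p: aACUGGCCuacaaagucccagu
hsa-miR-193a-5p: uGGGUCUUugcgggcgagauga
No seed was shared between 2 of the 13 genes in the arms that the table lists, and the other microRNA genes at these regions were not compared.

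Most noncoding-start regions lay at lncRNA genes. By the gene of the nearest noncoding start, 460 of 546 (84.2%, 95% Wilson interval 81.0 to 87.1) were at lncRNA genes, 49 (8.97%) at pseudogenes, 23 (4.21%) at small RNA genes and 14 (2.56%) at the remaining types. Of the 460 lncRNA regions 264 (57.4%) belonged to a gene known only by its identifier. The pseudogene regions included 10 at transcribed unitary, 10 at unprocessed, 8 at transcribed unprocessed, 10 at processed and 5 at transcribed processed pseudogenes. Among the small RNA regions, 15 were at microRNA genes, 7 at small nuclear RNA (snRNA) genes and 1 at a small nucleolar RNA (snoRNA) gene. The remaining 14 comprised 6 genes still to be experimentally verified, 4 immunoglobulin variable segments and 4 transcripts of protein-coding genes that are annotated as targets of nonsense-mediated decay. The 546 regions named 498 genes, 42 of them with more than 1 region, and 154 regions (28.2%) had start sites of several genes within 1 kb. An lncRNA start lay within 1 kb of 475 regions (87.0%) and a pseudogene start within 1 kb of 100 (18.3%). More than 1 type was in reach of 79 regions (14.5%). Among 35 regions with a small RNA start in reach, 15 also had an lncRNA start in reach. The type of a region thus rests on which start is nearest, and ties went to the first gene name by alphabet. Comparisons by type below carry this limit.

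The regions sat just upstream of, or on, the noncoding start. The median position of a region's middle was -79.0 bp (quartiles -172 and 3.75), against -76.0 bp (-125 and -30.0) at protein-coding starts, where a negative value is upstream. The noncoding-start regions spread wider. The start itself was covered by 259 of 546 regions (47.4%), against 4588 of 6695 (68.5%) at protein-coding starts, a difference of -21.1 percentage points (95% Newcombe interval -25.4 to -16.8). The whole region lay upstream of the start in 35.5% against 24.6%, and downstream in 17.0% against 6.83%. Regions that covered a noncoding start had a peak in all 5 libraries in 168 of 259 (64.9%, 58.9 to 70.4), those upstream in 43.8% (37 to 50.8) and those downstream in 41.9% (32.4 to 52.1). Regions that covered the start were also wider, with a median of 225 bp against 175 bp upstream and 169 bp downstream, and the part of width in these shares was not tested.

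**Figure D1:**
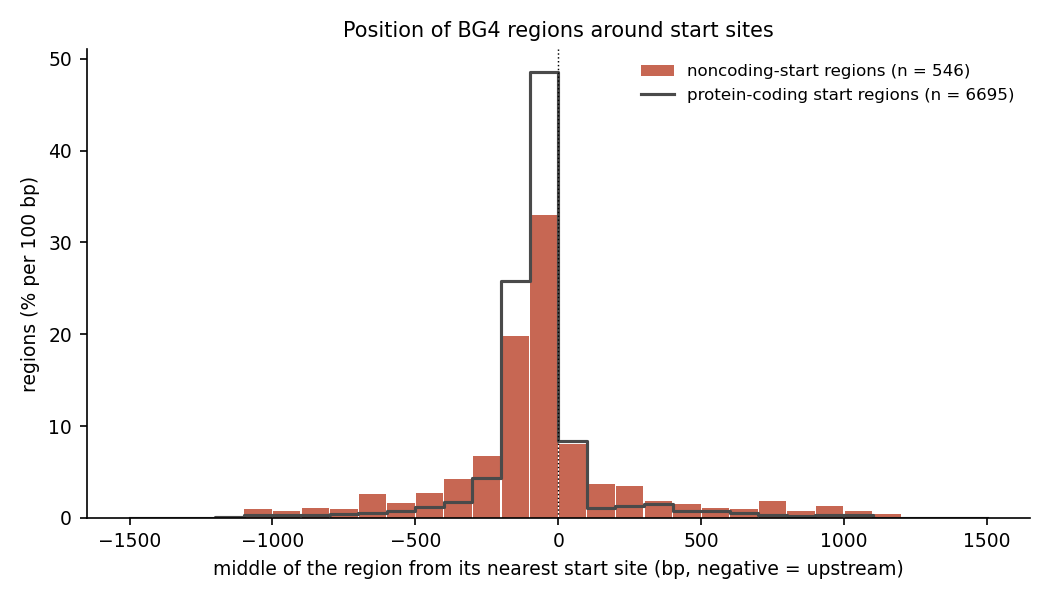
Position of the middle of each region from its nearest start site, in bins of 100 bp, negative upstream; bars are the 546 noncoding-start regions and the line the 6695 protein-coding start regions, both in percent of their group. Both peak in the 200 bp before the start, and the noncoding-start regions have more of their share farther out on both sides.

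Nearest protein-coding starts were mostly far away. The median distance was 22114 bp, with 31 regions at under 2 kb, 118 at 2 to 10 kb, 333 at 10 to 100 kb and 64 beyond 100 kb. The middle of 422 regions (77.3%) lay outside every protein-coding gene, that of 83 (15.2%) in a gene on the opposite strand to the noncoding transcript, and that of 40 (7.33%) in a gene on the same strand. Near the limits, the noncoding-start regions farthest from their start were 979, 986 and 1000 bp away, with folds of 5.76, 10.6 and 4.10 in library 1a. The regions just outside were at 1004, 1005 and 1020 bp, with folds of 8.72, 5.23 and 8.41. The folds on either side of the limit overlap.

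Among lncRNA starts, the region of LINC01003 ranked first of all 546. Rank was by the number of libraries with a peak and then by the lowest percentile of fold enrichment within a library's own list. LINC01003, an intergenic lncRNA on the plus strand, had its region at chr7:152160720-152161453, over its start and first exon, 26991 bp from the nearest coding start, that of KMT2C. In libraries 1a and 1c its folds were 17.4 and 19.4, and in 2a, 2b and 2c they were 18.6, 13.0 and 16.0, and its lowest percentile in any list was 99.4. PCGF3-AS1, antisense to the Polycomb subunit gene PCGF3, had folds of 18.4, 17.3, 14.8, 15.4 and 15.1 in the same order, at chr4:775541-776019. ENSG00000244459, an lncRNA with no symbol, had 16.8, 13.5, 16.5, 13.2 and 16.4 at chr4:1582116-1582593. In these 3 genes every library stood above 12, and none of the folds was far from the others.

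The other 7 of the 10 best were TMEM191A, annotated as an lncRNA, the pseudogene FAM86C2P and 5 lncRNAs without a symbol, with folds from 9.58 to 17.1. Of the 10, 9 covered their start, and TMEM191A lay 281 bp downstream of it. The regions of TMEM191A and FAM86C2P, 2 of the 10, have near-identical copies elsewhere in the genome, so reads may have been placed at the wrong copy. A percentile of at least 90 in all 5 libraries was reached by 8 noncoding-start regions (1.47%) and by 130 at protein-coding starts (1.94%), a difference of -0.477 points (-1.28 to 0.955). The share of such strong regions was thus not shown to differ at these numbers.

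**Figure D2:**
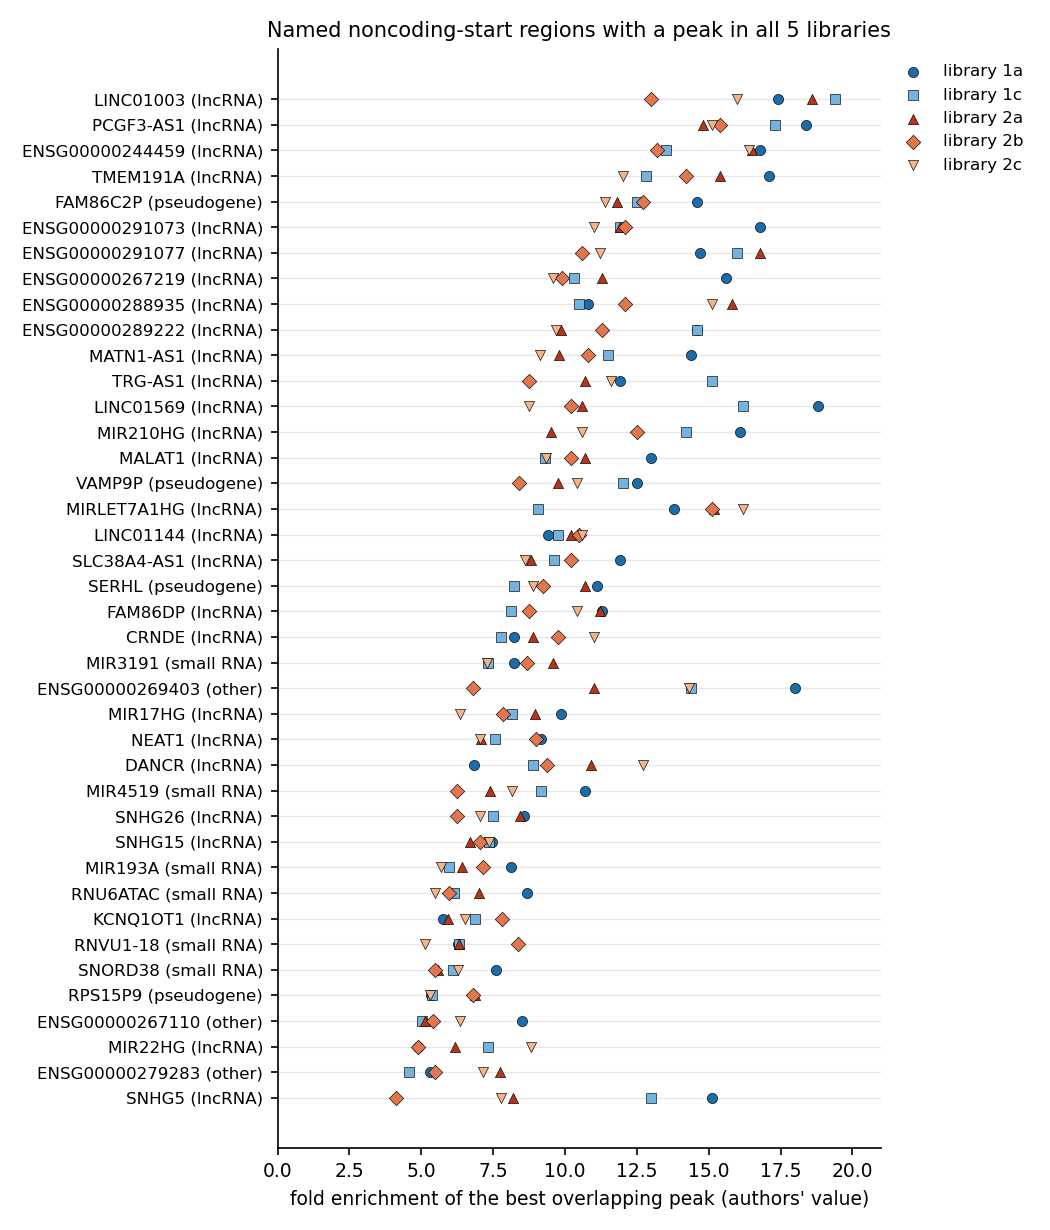
Fold enrichment of the highest peak that overlaps each named region with a peak in all 5 libraries (x axis, the authors' value), 1 marker per library, regions ordered from best rank at the top. LINC01003, PCGF3-AS1 and ENSG00000244459 lie above 12 in every library, and SNHG5 at the bottom runs from 4.12 to 15.1.

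Well-studied lncRNAs were listed by name: 9 of 29 matched genes had a noncoding-start region (31.0%, 17.3 to 49.2), namely CRNDE, DLEU2, KCNQ1OT1, LINC00467, MALAT1, MIAT, NEAT1, NORAD and OIP5-AS1. Over all 43366 noncoding genes the share was 1.49% (646 genes), and over all 63464 genes with any region near a start 14.4%. Over the 18823 lncRNA genes alone it was 2.71% (511 genes) with a noncoding-start region. The genes of this and the following lists were not matched to other genes for CpG islands. MALAT1, an abundant nuclear RNA of splicing speckles, had folds of 13.0, 9.30, 10.7, 10.2 and 9.34 (1a, 1c, 2a, 2b, 2c) in a region over its start, chr11:65264880-65265185. NEAT1, the scaffold of paraspeckles, lies beside MALAT1 on the same chromosome, and its region 315 bp upstream, chr11:65189595-65189930, had 9.18, 7.58, 7.09, 8.98 and 7.03. MALAT1 exceeded NEAT1 in each library. CRNDE, an lncRNA first described in colorectal tumours, had 8.22, 7.78, 8.88, 9.76 and 11.0 at chr16:54962998-54963355, 1422 bp from the start of IRX5.

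KCNQ1OT1, the imprinted antisense RNA that silences its neighbours in cis on one parental chromosome, had 5.76, 6.86, 5.92, 7.81 and 6.53 in a region 63 bp upstream of its start and inside KCNQ1 on the other strand. These 4 were the members called in all 5 libraries. NORAD, an abundant RNA that binds Pumilio proteins, had a peak in 3 libraries only, with folds of 7.35 in 1a, 5.62 in 2a and 5.08 in 2b. LINC-PINT had a region that also reached a protein-coding start, and BANCR and CASC15 were the first of the list without any.

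Host genes of snoRNAs, whose introns are cut into the guides of ribosomal RNA modification, had noncoding-start regions at 11 of 29 (37.9%, 22.7 to 56.0), and 8 more had a region that also reached a coding start, among them GAS5 and ZFAS1. Of all lncRNA genes 2.71% had a noncoding-start region. DANCR, an lncRNA linked to the undifferentiated state of progenitor cells, had folds of 6.83, 8.90, 10.9, 9.37 and 12.7 at chr4:53578346-53578693, a region that also lies at MIR4449 and SNORA26. SNHG26 had 8.56, 7.49, 8.42, 6.24 and 7.04, and SNHG15 had 7.47, 7.36, 6.70, 7.03 and 7.35. SNHG5 had 15.1 and 13.0 in the libraries of replicate 1, against 8.19, 4.12 and 7.77 in those of replicate 2. SNHG15 varied least and SNHG5 most of the 4, with both libraries of replicate 1 above those of replicate 2 at SNHG5.

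MicroRNA host lncRNAs had a noncoding-start region at 11 of 83 genes (13.3%, 7.56 to 22.2). The share was 2.71% over all lncRNA genes and 0.426% over all small RNA genes. MIR210HG, host of the hypoxia-induced miR-210, had folds of 16.1, 14.2, 9.51, 12.5 and 10.6 at chr11:568400-568787. MIRLET7A1HG, host of let-7 family members, had 13.8, 9.07, 15.2, 15.1 and 16.2 at chr9:96928098-96928563. MIR17HG, host of a growth-promoting microRNA cluster, had 9.86, 8.14, 8.96, 7.84 and 6.34 at chr13:91999548-92000122. MIR210HG was the highest of the 3 in 1a and 1c, and MIRLET7A1HG in 2a, 2b and 2c. In the list of blood cell microRNA genes 4 of 16 had a region (25%, 10.2 to 49.5), MIR17HG, MIR210HG, MIR22HG and MIR23AHG, while MIR100HG and MIR126 had none. The lists are partly nested, so MIR210HG, MIR17HG, MIR22HG and MIR23AHG count in both.

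Of 2248 LINC genes, the intergenic class, 108 (4.80%) had any region and 81 (3.60%, 2.91 to 4.46) a noncoding-start region. Of 1838 antisense genes 336 (18.3%) had any region and 48 (2.61%, 1.98 to 3.45) a noncoding-start one. Over all lncRNA genes the shares were 10.3% with any region and 2.71% (2.49 to 2.96) with a noncoding-start one. The noncoding-start share of antisense genes was thus near that of all lncRNA genes. Of 589 divergent transcript genes, which are named for starting back to back with a coding gene, 311 (52.8%) had a region, 0 of them a noncoding-start one (upper limit 0.648%). The selection of regions removes those near a coding start, which a divergent transcript has close by, so this order is a description. Besides PCGF3-AS1, the strongest antisense genes were MATN1-AS1, with folds from 9.13 to 14.4, TRG-AS1, from 8.76 to 15.1, and SLC38A4-AS1, from 8.59 to 11.9. Among LINC genes LINC01569 ran from 8.74 to 18.8 and LINC01144 from 9.39 to 10.6.

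Small RNA genes and pseudogenes had few noncoding-start regions for their number, with overlapping intervals, and lncRNA genes more. Of 8458 small RNA genes 36 (0.426%, 0.308 to 0.589) had a noncoding-start region, against 511 of 18823 lncRNA genes (2.71%, 2.49 to 2.96) and 88 of 14637 pseudogenes (0.601%, 0.488 to 0.740). These numbers include genes beside a coding start, whose regions the selection removes. With any region counted, small RNA genes had 1.74% (1.48 to 2.04), pseudogenes 1.04% (0.887 to 1.22) and lncRNA genes 10.3% (9.83 to 10.7). Small RNA genes were then above pseudogenes. Small RNA regions were seldom at the start itself: 2 of 23 covered it, 13 lay upstream and 8 downstream. At chr19:47729329-47729690, 509 bp from the start of MIR3191 and inside the apoptosis gene BBC3, folds were 8.23, 7.32, 9.58, 8.69 and 7.30. The region over MIR4519, chr16:30886609-30886858, also lay at the host MIR762HG and had 10.7, 9.18, 7.40, 6.25 and 8.15. MIR193A, a microRNA reported as a tumour suppressor in leukaemia, had 8.11, 5.96, 6.42, 7.15 and 5.67 at chr17:29886108-29886293, 722 bp upstream. MIR3191 is on the plus strand in GENCODE on GRCh37 and on the minus strand in RefSeq on GRCh38.p14, so on which side of it the region lies is not settled. Annotated microRNA starts are those of the hairpin and not of the primary transcript, so a distance to them is not a distance to a promoter.

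The listed genes read by RNA polymerase III and the listed spliceosomal snRNA genes had regions at a minority of members. Their shares were above the 1.49% of all noncoding genes and the 0.426% of small RNA genes. The lists leave out most annotated copies of these genes. Of all 1897 snRNA genes 9 had a noncoding-start region (0.474%, 0.250 to 0.899). By gene name, with copies, U6 had 0 of 1313, 7SL 1 of 846, Y RNA 0 of 57 and U1 4 of 132. Of 16 polymerase III genes, RN7SL2, an RNA of the signal recognition particle, and RNU6ATAC, the U6atac snRNA of the minor spliceosome, had a noncoding-start region (12.5%, 3.50 to 36.0), and RMRP, RN7SK and RNU6-2 had one that also reached a coding start. RNU6ATAC had folds of 8.66, 6.13, 7.0, 5.96 and 5.46 at chr9:137030007-137030142. Of 15 spliceosomal and histone-processing snRNA genes 3 had one (20.0%, 7.05 to 45.2): RNVU1-18, a variant U1 gene, with folds of 6.29, 6.31, 6.30, 8.38 and 5.11, and RNU1-2 and RNU5E-1, each with peaks in 3 libraries. RNU1-1, RNU1-3, RNU6-1 and RNU6-7 had none. In RNU6ATAC and RNVU1-18 every library had a peak, and their folds overlapped. The snoRNA region, 518 bp downstream of the start of SNORD38, had folds from 5.47 to 7.60.

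The share of pseudogenes with a region differed between annotated classes. Noncoding-start regions were found at 11 of 152 transcribed unitary pseudogenes (7.24%, 4.09 to 12.5) and 34 of 880 transcribed unprocessed ones (3.86%, 2.78 to 5.35), but at 17 of 2312 unprocessed (0.735%) and 12 of 9949 processed ones (0.121%, 0.0690 to 0.211). Transcribed processed pseudogenes had 8 of 494 (1.62%, 0.823 to 3.16), above the processed ones. The classes also differed in the share of genes with a strict CpG island near a start. It was 46.7% for transcribed unitary, 27.2% for transcribed unprocessed, 10.2% for unprocessed, 10.3% for processed and 33.6% for transcribed processed pseudogenes. The part of islands, or of the way the copy arose, in the order was not tested. Ribosomal protein pseudogenes, nearly all processed copies, had 1 of 1489 (0.0672%), RPS15P9, with folds from 5.30 to 6.88. The 10 regions nearest to transcribed unitary pseudogenes all met a strict CpG island, and 8 had a peak in all 5 libraries. VAMP9P had folds of 12.5, 12, 9.75, 8.40 and 10.4 at chr4:83206060-83206387, and SERHL had 11.1, 8.24, 10.7, 9.25 and 8.88 at chr22:42896133-42896642. These 2 genes had overlapping folds, with VAMP9P the higher in 1a, 1c and 2c.

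A duplicated family stood out by its count, and it was chosen after its values were seen. FAM86 genes encode a family of protein methyltransferases, and its human copies are mostly pseudogenes. Of 12 noncoding FAM86 gene names 11 had a noncoding-start region, and both coding ones had a region too. The 18 regions near these starts had 68.2 to 75.5% GC, all met a strict island, 15 held the motif, 15 had a peak in all 5 libraries, and folds ran from 3.68 to 17.3. FAM86C2P, the best ranked, had 14.6, 12.5, 11.8, 12.7 and 11.4. FAM86GP had 14.1, 15.7, 6.17, 9.74 and 10.2 at chr11:3443729-3444406. In 8 of the 18 regions a near-identical copy lies elsewhere in the genome, so reads may have been placed at the wrong copy, and how such reads were treated is not given in the sources used here.

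The same holds for SMG1 pseudogenes, copies of a kinase gene of nonsense-mediated decay, where 3 of 7 gene names had a region and 3 of 4 regions had another copy. None of those 4 held the motif, although their GC content ran from 69.8 to 81.5%. Over all noncoding-start regions another copy, meaning at least 95% identity over at least 80% of the region, was found for 47 of 546 (8.61%, 6.54 to 11.3), against 45 of 6695 at protein-coding starts (0.672%) and 1.33% of all regions. The difference to protein-coding starts was 7.94 points (5.85 to 10.6). For 7 noncoding-start regions the search did not return the region itself, so copies of these short or repetitive stretches could have been missed. The 47 regions with a copy had a peak in all 5 libraries in 63.8% (49.5 to 76.0) and median folds of 7.97, 7.57, 7.44, 6.55 and 7.79 in the 5 libraries.

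A set of weak regions, again chosen after its values were seen, lay at a ribosomal RNA pseudogene and at some microRNA genes and hosts on other chromosomes. At RNA5-8SP2, a pseudogene of the 5.8S ribosomal RNA, 3 regions had folds from 2.08 to 4.56 in 1a, 1c, 2a and 2b and no peak in 2c. MIR3648, with MIR3687 in the same region of 1609 bp at chr21:9825450-9827058, had 3.44, 3.60, 2.83 and 1.94 in those libraries and none in 2c. MIR663B and the 4 regions of MIR663AHG also had no peak in 2c, with folds from 1.92 to 4.59, and 2 of the MIR663AHG regions had none in 2b. The MIR3648 region has 2 other copies in the genome. All these regions met a strict island. In all, 22 noncoding-start regions (4.03%) had no fold of 5 or more, of which 17 had no peak in 2c, against 31 (0.463%) at protein-coding starts, of which 6 had none in 2c. Over all noncoding-start regions 8.42% lacked a peak in 2c, against 4.17% at protein-coding starts.

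Immunoglobulin and T cell receptor segments made up a further group, chosen like the chromosome below after values were seen. Regions lay at IGLV1-51, IGLV6-57, IGLV1-40 and IGLVV-66 of the lambda light chain locus on chromosome 22, at IGHV1-18, and at TRGV7 and TRG-AS1 in the T cell receptor gamma locus. None met a strict CpG island. The 4 lambda regions had folds from 2.50 to 6.76, while TRG-AS1, at chr7:38380886-38381188, had 11.9, 15.1, 10.7, 8.76 and 11.6. The TRGV7 region ran from 3.88 to 11.5, and the IGHV1-18 region from 4.33 to 13.0 in the 3 libraries with a peak. The TRG-AS1 folds were above all those of the lambda regions, while those of TRGV7 and IGHV1-18 overlapped them. Chromosome 22 held 27 noncoding-start regions of its 251 regions (10.8%, 7.50 to 15.2), the highest share of any chromosome, and chromosome 8 had the lowest, 11 of 302 (3.64%, 2.05 to 6.40). DNA copy number, which differs along the K562 genome, was not measured in these files, and its part in these values was not tested.

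CpG islands met a smaller share of the noncoding-start regions than of those at protein-coding starts. A strict island, meaning at least 500 bp with a GC share of 0.55 and 0.65 of the CpG count that its base composition predicts, met 401 of 546 noncoding-start regions (73.4%, 69.6 to 77.0), against 95.7% at protein-coding starts, 37.2% away from starts and 83.2% of all regions. The difference to protein-coding starts was -22.3 points (-26.1 to -18.7), and to regions away from starts 36.2 points (31.7 to 40.4). Over all genes, with or without a region, 19.7% of noncoding and 74.5% of protein-coding genes had a strict island near a start. The part of this in the difference between regions was not tested. In the peaks of single libraries the share was 60.2, 60.4, 72.3, 73.4 and 67.1% at noncoding starts, against 93.4, 93.8, 95.9, 96.2 and 94.4% at protein-coding starts. It was lower in 5 of 5 libraries (exact two-sided sign-flip permutation p = 0.0625, the smallest that 5 libraries allow). Averaged within replicates the share was 65.6 ± 7.47% against 94.6 ± 1.32% (SD, n = 2 biological replicates). By type, the island share was 74.8% at lncRNA, 75.5% at pseudogene, 60.9% at small RNA and 42.9% at remaining starts. Their intervals overlapped, except that of the remaining types (21.4 to 67.4) and that of lncRNAs (70.6 to 78.5).

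Genes with a strict island more often had a region than genes without one. This count by gene was chosen after values had been seen. Among noncoding genes with no protein-coding start within 1 kb, 557 of 5080 with a strict island near a start had a region (11.0%, 10.1 to 11.9), against 116 of 34327 without (0.338%, 0.282 to 0.405). For lncRNA genes with an island it was 436 of 2889 (15.1%, 13.8 to 16.4), for transcribed unitary pseudogenes 11 of 47 (23.4%, 13.6 to 37.2), for transcribed unprocessed ones 32 of 222 (14.4%, 10.4 to 19.6), for microRNAs 25 of 235 (10.6%, 7.31 to 15.2) and for processed pseudogenes 8 of 964 (0.830%, 0.421 to 1.63). Protein-coding genes with an island had a region in 6764 of 14978 (45.2%, 44.4 to 46.0). The interval of processed pseudogenes lay below those of the other classes just given, but met that of snoRNA genes, 2 of 44 (4.55%, 1.26 to 15.1). Genes with more start sites have more chances to be near a region, and the number of starts was not held equal.

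**Figure D3:**
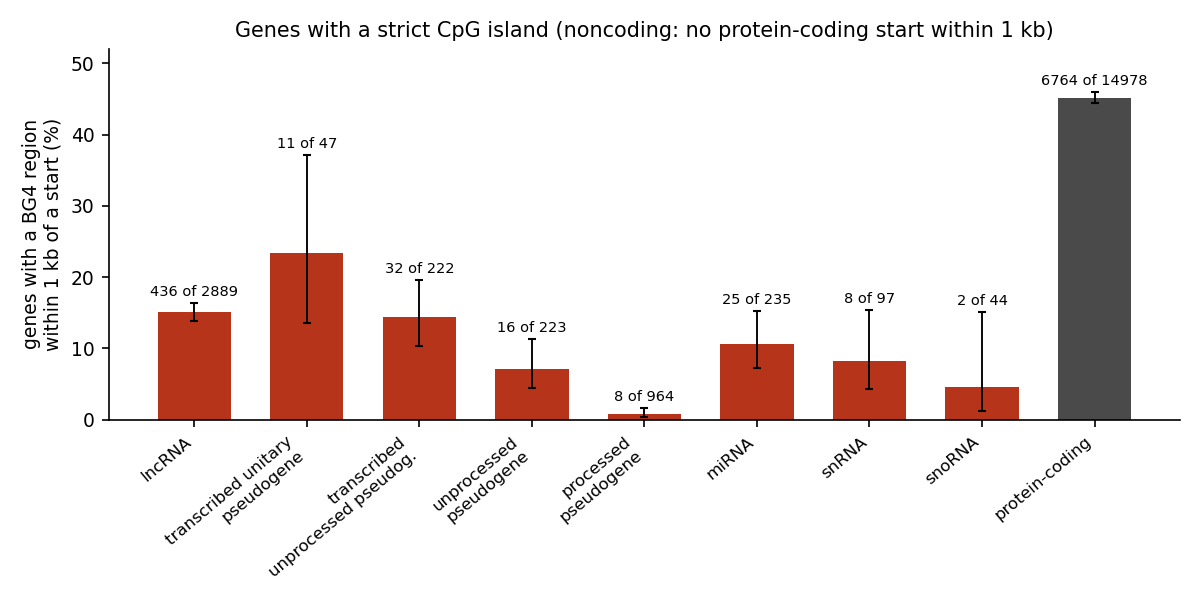
Share of genes with a strict CpG island near a start that had a high-confidence BG4 region within 1 kb of a start, by gene type; noncoding genes are those with no protein-coding start within 1 kb, lines are 95% Wilson intervals, and the counts stand above the bars. The noncoding types lie between 0.830 and 23.4%, and protein-coding genes at 45.2%.

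The quadruplex motif was somewhat rarer at noncoding starts. It was in 172 of 546 regions (31.5%, 27.7 to 35.5), against 37.3% at protein-coding starts, 25.4% away from starts and 34.7% of all regions. The difference to protein-coding starts was -5.79 points (-9.73 to -1.62). Among regions in a strict island it was 35.9% against 37.8%, a difference of -1.91 points (-6.60 to 3.04), and within classes of like GC content 0.588 points the other way. With any 1 library left out the interval of the difference held 0, at -2.90 points without 1a, -4.00 without 1c, -3.88 without 2a, -4.48 without 2b and -2.46 without 2c. In the peaks of single libraries it was 27.2, 33.7, 28.7, 29.5 and 31.6% at noncoding starts, against 38.7, 39.7, 37.1, 34.9 and 39.6% at protein-coding starts, lower in 5 of 5 libraries (exact two-sided sign-flip permutation p = 0.0625, the smallest possible). GC content averaged 68.3 ± 7.30% (SD over 546 regions) against 70.9 ± 7.02%, and in the peaks of each library it was lower at noncoding starts by 2.55 to 3.75 points. The part of GC content in the motif difference was not tested beyond these GC classes.

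The motif was split about evenly between the strands. Of 157 noncoding-start regions with motifs on 1 strand alone, 80 had them on the strand of the transcript (51.0%, 43.2 to 58.7), against 1226 of 2244 at protein-coding starts (54.6%, 52.6 to 56.7), a difference of -3.68 points (-11.7 to 4.30). The share was 47.3% in regions upstream of the start, 50.6% in those that cover it and 60.9% in those downstream (14 of 23, interval 40.8 to 77.8). The 3 intervals overlapped. Inside a coding gene on the opposite strand, 35 of 83 regions held a motif (42.2%, 32.1 to 52.9), against 127 of 422 outside coding genes (30.1%, 25.9 to 34.6). Inside a coding gene on the same strand it was 9 of 40 (22.5%, 12.3 to 37.5). No interval was taken for the differences between these shares. The overlap of the separate intervals does not show that the shares are alike.

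**Figure D4:**
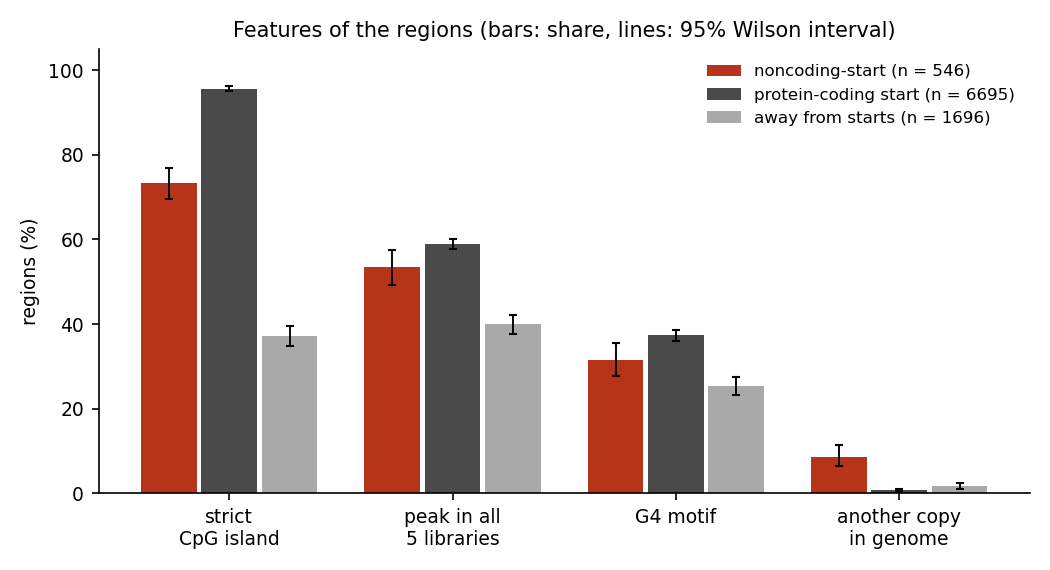
Share of regions in a strict CpG island, with a peak in all 5 libraries, with the motif and with another copy in the genome; bars are the noncoding-start, protein-coding start and away regions in that order, and lines are 95% Wilson intervals. The noncoding-start regions lie between the other two in the first 3 features and above both in the last, at 8.61%.

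Noncoding-start regions were called nearly as steadily over libraries as coding ones. A peak in all 5 libraries was present at 292 of 546 (53.5%, 49.3 to 57.6), against 59.0% at protein-coding starts, 39.9% away from starts and 55.0% of all regions. The difference to protein-coding starts was -5.49 points (-9.84 to -1.18), and 1.28 points the other way within classes of like region width. A region is a stretch covered by at least 3 lists, so its width is not independent of the calls. Among regions in a strict island the difference was -2.25 points (-7.28 to 2.64), and outside strict islands 2.83 (-6.80 to 12.6). The difference in the share called in every library was -0.541 points without 1a, -3.71 without 2a, -3.40 without 2b and -0.400 without 2c, with intervals that held 0, and -4.43 (-8.90 to -0.243) without 1c. Median width was 192 bp at noncoding starts and 215 bp at protein-coding ones. Each library had a peak at 90.8, 83.0, 79.5, 82.6 and 91.6% of noncoding-start regions, against 92.5, 81.4, 81.8, 87.9 and 95.8% at protein-coding starts, lower in 4 of 5 libraries (exact two-sided sign-flip permutation p = 0.125, with 0.0625 the smallest possible). Library 1c went the other way. By type the share in all 5 libraries was 53.9% for lncRNA, 57.1% for pseudogene, 43.5% for small RNA and 42.9% for the remaining regions, with overlapping intervals.

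In strength the noncoding-start regions ranked between the other kinds. The median percentile of their fold within a library's list was 63.7, 56.8, 51.3, 49.5 and 59.1, against 68.1, 64.9, 57.6, 58.2 and 62.9 at protein-coding starts and 56.3, 54.9, 44.7, 44 and 50.1 away from starts. They were below coding starts in 5 of 5 libraries by 3.77 to 8.71 points and above regions away from starts in 5 of 5 by 1.89 to 8.98 (exact two-sided sign-flip permutation p = 0.0625 for each, the smallest possible). Over the 2 biological replicates the medians averaged 56.8 ± 4.92 at noncoding starts and 63.0 ± 4.89 at protein-coding starts, a difference of -6.26 ± 0.0307 (SD, n = 2). It was -3.12 within classes of like region width, an alternative added after seeing the data, and -4.05 with lncRNA genes only. The spread between replicates was about as large as the difference. The mean difference was nearly equal in the 2 replicates, but it varied between single libraries, by 3.77 to 8.71 points. With n = 2 the small SD does not show that the difference is steady. The 23 small RNA regions had the lowest medians of the 3 larger types in every library, 40.7, 35.8, 24.9, 20.0 and 43.4, and the lncRNA regions the highest, 64.9, 61.4, 52.2, 52.8 and 60.3. All medians here cover only the regions with a peak in that library. For small RNA regions these were 91.3, 82.6, 82.6, 91.3 and 69.6%. Weak ones without a peak in 2c, such as MIR3648 and MIR663B, do not count in its median.

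**Figure D5:**
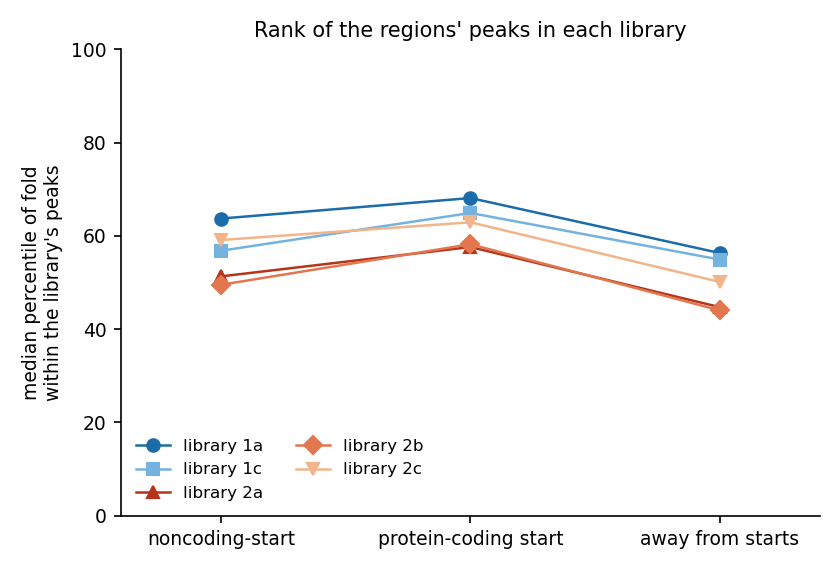
Median percentile of fold enrichment (y axis, 0 to 100 within a library's own peaks) of the noncoding-start, protein-coding start and away regions, 1 line per library. All 5 lines rise towards protein-coding starts and end lowest away from starts.

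In the full peak lists, peaks at noncoding starts alone took a like share of each library. They numbered 810, 652, 501, 545 and 692, which was 6.50, 6.49, 6.23, 6.05 and 6.23% of the peaks. Averaged within replicates the share was 6.33 ± 0.227% (SD, n = 2). Of these peaks 61.2, 69.2, 87.0, 82.8 and 71.4% overlapped a high-confidence region, against 79.7, 86.8, 91.3, 86.8 and 81.8% of the peaks at protein-coding starts, lower in 5 of 5 libraries (exact two-sided sign-flip permutation p = 0.0625, the smallest possible). Libraries 1a and 1c, which hold the most noncoding-start peaks as a share, had the lowest overlap together with 2c. These lists were also the longest. A high-confidence region needs peaks of at least 3 of the 5 lists. A stretch covered in 1a and 1c alone could therefore not qualify, while one covered in 2a, 2b and 2c alone could. The order of the libraries is thus a description, and the part of this rule in it was not tested.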

How the data were processed

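BG4 chromatin immunoprecipitation was sequenced in 5 libraries of asynchronous K562 cells. Peaks were called with MACS2 on hg19, per the submitters' processing notes; the aligner, settings, control and treatment of reads with several matches are not given in the sources used here. The deposited peak lists hold, per peak, the authors' score, their fold enrichment over background, and their −log10 p and −log10 q. These values describe and rank peaks within a list only. The list of high-confidence regions, deposited with no value per region, was used as it stands; each of its 8955 regions equalled a stretch covered by peaks of at least 3 of the 5 lists.

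Start sites were those of basic transcripts in GENCODE release 44 mapped to GRCh37. A region's fold in a library was the highest of the peaks that overlap it by 1 base or more. Sequence was read with pysam 0.24.0, other copies were sought with BLAST+ 2.17.0, and statistics used numpy 2.4.6 and pandas 2.3.3. The functions were tested on simulated data. Shares have 95% Wilson intervals and differences Newcombe intervals, which cover counting error only; neighbouring regions are not independent. Library values were compared by an exact sign-flip permutation test, and SDs use the means of the 2 biological replicates. The members, gene lists and tests were chosen with earlier results of these data known. Named were the 10 best ranked regions, the 3 best of each type, up to 4 regions per gene list with the first 2 list members without a region, and the regions nearest the 1 kb limit; not all of these are used. The sequences of some named regions are not reported here.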

Additional observations from a re-analysis of the deposited data

Results flagged for a closer look

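In ENSG00000291073, an lncRNA at the SMG1P3 copy, library 1a had a fold of 16.8, far from the other 4 libraries at 11.9, 11.9, 12.1 and 11.0. Among 48 groups of values looked at in this way it was the only one so far apart, and chance alone gives about 1 in 20. The high-confidence list also held 15 regions on the mitochondrial chromosome and 3 on chromosome Y, which no comparison above used. The K562 inputs were not used here, so no control level was set for them.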

How the results depend on the processing

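The lower fold percentile and the lower island share at noncoding starts kept their direction under each alternative run, -3.12 to -7.05 points and -15.4 to -24.8 points. Regions in a strict island alone were not among these runs, and there the fold percentile was higher at noncoding starts in 2c. Of 104 alternative values, which include plain counts, 81 were labelled the same, 13 weaker, 8 moved and 2 reversed. The 13 weaker ones kept their sign but had intervals that held 0. The 8 moved ones were counts and GC differences that changed in size, and those GC differences kept their sign. The motif difference against protein-coding starts turned to 0.588 points within classes of GC content, and the difference in the share with a peak in all 5 libraries to 1.28 points within width classes. With regions in all 5 libraries alone, 292 regions and 382 genes were left, the motif difference was -4.03 points and the GC difference -1.58. With a −log10 p limit of 10 on peaks, 333 regions and 422 genes were left, and the differences were -5.11 points in all 5 libraries, -3.42 for the motif and -1.59 for GC. With limits of 500 bp the difference in all 5 libraries was -3.92 points (-8.37 to 0.448). With 1 library left out at a time the difference in all called libraries ran from -4.43 to -0.400 points, that of the motif from -4.48 to -2.46 and that of GC from -2.61 to -2.15. The intervals of the motif held 0 in each case, and those of the share in all libraries in each but the one without 1c. The causes were not tested. Leaving out regions with another copy, and comparing folds within width classes, were alternatives chosen after seeing the data. No paired analysis was possible because no 2 groups of samples were compared; kinds of region were compared within each BG4 library, and the HaCaT groups that share replicate numbers were not analysed. Read depth is unknown and limits every comparison between libraries.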
